A study of Danio rerio with 10 samples.

Results

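The translocation and N-glycosylation machinery of the endoplasmic reticulum (ER) was followed in zebrafish livers as a list of 46 gene names. They were chosen by function, with earlier results of these data known, and found by gene name in the count tables. Of these names, 44 were matched. They gave 46 of the 32105 gene identifiers counted, because sec61a1 and ganab each name 2 identifiers, while srp14 and alg1 were not matched. By role the identifiers fall into the translocon with its partners (7), the translocon-associated protein complex or TRAP (4), the signal recognition particle (SRP) with its receptor (7), signal peptidase (4), the oligosaccharyltransferase or OST (9), the enzymes that build the lipid-linked glycan (11, the alg genes and dpagt1) and the enzymes that trim glucose from the attached glycan (4). At each age 45 of them passed the filter on low counts. The exception was alg13, listed at 0 to 0.472 CPM (counts scaled to a common library size) at 5 dpf and at 0 counts in all 4 libraries of 78 hpf, where a count of 0 allows up to 0.472 to 0.616 CPM.

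Proteins destined for secretion carry a signal peptide that SRP binds as it leaves the ribosome; the SRP receptor then hands the ribosome to the Sec61 channel in the ER membrane, and signal peptidase cuts the signal peptide off. OST moves a preassembled glycan from the lipid dolichol onto asparagines of the entering chain, and glucosidases then remove its glucoses, which sets up the chaperone cycle of glycoprotein folding. The hepatocyte is a secretory cell that sends most plasma proteins along this route. Atf6 is an ER membrane protein whose nuclear fragment (nAtf6) is released under ER stress and activates transcription of genes for ER protein folding.

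All nAtf6 TG fish came from a single allele (C) of Tg(fabp10:nAtf6-cherry; cmlc2:GFP), in which the fabp10 promoter drives nAtf6 in hepatocytes and green hearts mark carriers. At 5 dpf (120 hpf), carriers had been outcrossed to WT TAB 14 fish according to the protocol of those libraries, and each group had 3 pools of 25 livers, nAtf6 TG or siblings without green hearts, from 3 clutches dissected on separate days; ribosomal RNA was removed. At 78 hpf, carriers had been crossed to Tg(fabp10a:CAAX-EGFP), which marks the liver, and there were 2 pools of 20 livers per group from 2 clutches, with polyA selection. The description of the whole series names the second cross for both ages, so age, RNA selection and depth differ together, and the cross may differ too.

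For the 4 libraries of 78 hpf, each title contradicts the name of the deposited counts on genotype, and the genotype entry does not separate them. The treatment protocol ties green hearts to the name Natf6 and their absence to the name SIBS. The deposited names are used below, every change at 78 hpf is Natf6-named over SIBS-named, and the titles would turn each sign. The gene carried by the transgene, atf6, was at 90.3, 96.9 and 77.8 CPM in 5 dpf siblings and 439, 540 and 543 CPM in nAtf6 TG livers. At 78 hpf it was at 85.4 and 45.5 CPM in the SIBS-named libraries and 184 and 337 CPM in the Natf6-named libraries. Reads of the transgene and of the endogenous gene are not separated in these counts. The ER chaperone hspa5, a known Atf6 target, was at 244 to 372 CPM in siblings and 3918 to 8152 CPM in nAtf6 TG livers, and at 1209 and 2183 CPM in SIBS-named against 11080 and 15080 CPM in Natf6-named libraries. Both genes thus stood with the deposited names and against the titles.

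Between 17622825 and 22963880 reads were counted on genes per library at 5 dpf, and between 4868321 and 6354867 at 78 hpf. All 9 hepatocyte markers were detected in every library. Sibling 2 stood apart from the other siblings, and its TMM scaling factor was 0.758 against 1.02 to 1.11 in the other 5 dpf libraries. nAtf6 libraries 2 and 3 were closer to each other than to library 1. The chi-square of their counts per degree of freedom was 2.70, against 48.5 and 53.4 with library 1 and 11.6 to 77.8 between siblings. Whether these 2 libraries are independent pools was not tested, and a fit with them summed into 1 is given below. Exocrine pancreas markers, from an organ that touches the liver and is itself rich in ER, summed to 2125 to 5031 CPM in siblings and 1200 to 2058 CPM in nAtf6 TG livers, where 7 of 15 were lower at an adjusted p under 0.05 and none was higher. At 78 hpf they summed to 40.3 and 70.8 CPM in SIBS-named libraries, 261 CPM in Natf6-named library 1 and 8468 CPM in library 2, and none of the 16 was at 0 in all libraries. Hepatocyte markers summed to 59690 to 121600 CPM in siblings and 47020 to 50680 CPM in nAtf6 TG livers (1 of 9 lower), and biliary markers to 482 to 547 and 752 to 1541 CPM (2 of 6 higher, 1 lower). Of the muscle markers, which summed to 312 to 602 CPM in siblings and to 539, 90.1 and 96.0 CPM in nAtf6 TG livers, none of 7 passed the threshold. Macrophage markers summed to 9.06 to 36.0 CPM in siblings and 11.1 to 36.5 CPM in nAtf6 TG livers (3 of 8 higher, 1 lower), 1 of 4 erythrocyte markers was lower, and 0 of the intestine, endothelial and stellate markers passed. The part of these cell types in the results below was not tested.

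To see which steps of the pathway differed with nAtf6, the members were compared between nAtf6 TG and sibling livers at 5 dpf. Of 45 members tested, 18 rose and 0 fell at an adjusted p under 0.05 (edgeR's quasi-likelihood test, Benjamini-Hochberg adjustment over all 18470 genes tested, n = 3 pools per group). Across all genes tested, 21.2% passed, 13.7% higher and 7.48% lower. The rises lay in glucose trimming (4 of 4 members), OST (5 of 9), the lipid-linked glycan (5 of 10) and signal peptidase (2 of 4). In the translocon 0 of 7 passed, and TRAP and SRP had 1 each, of 4 and 7. The median log2 fold change was 0.52 over the members and -0.04 over all genes. In 24 members every nAtf6 TG library was above every sibling library, in 1 every one was below, and 20 overlapped. Of all genes, 22.6% were higher without overlap, and the share lower without overlap was not counted. CPM from pooled livers do not separate RNA per hepatocyte from the share of hepatocytes in the pool. The hepatocyte markers summed to a mean of 83600 CPM in siblings and 48800 CPM in nAtf6 TG livers, with 1 of 9 at a positive log2 fold change. The part of this share in the changes of the members was not tested.

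Leaving out sibling 2 gave 29 calls among the members (28 higher, 1 lower), while the share called over all genes went from 21.2% to 37.9%. Leaving out nAtf6 library 1 gave 19 (28.6% of all genes), and leaving out any 1 of sibling 1, sibling 3, nAtf6 library 2 and nAtf6 library 3 gave 16 (6.78% to 9.08% of all genes). With TMM scaling, sibling 2 was the highest sibling for 42 of 45 members, whereas with CPM on total counts it was so for 15. Among the 18 members called, nAtf6 library 1 was the lowest nAtf6 TG library for 16. The shares of all genes in these orders were not counted. The calls of ssr1 and magt1 were lost in several of these fits, and the other 16 held in every one.

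**Figure D1:**
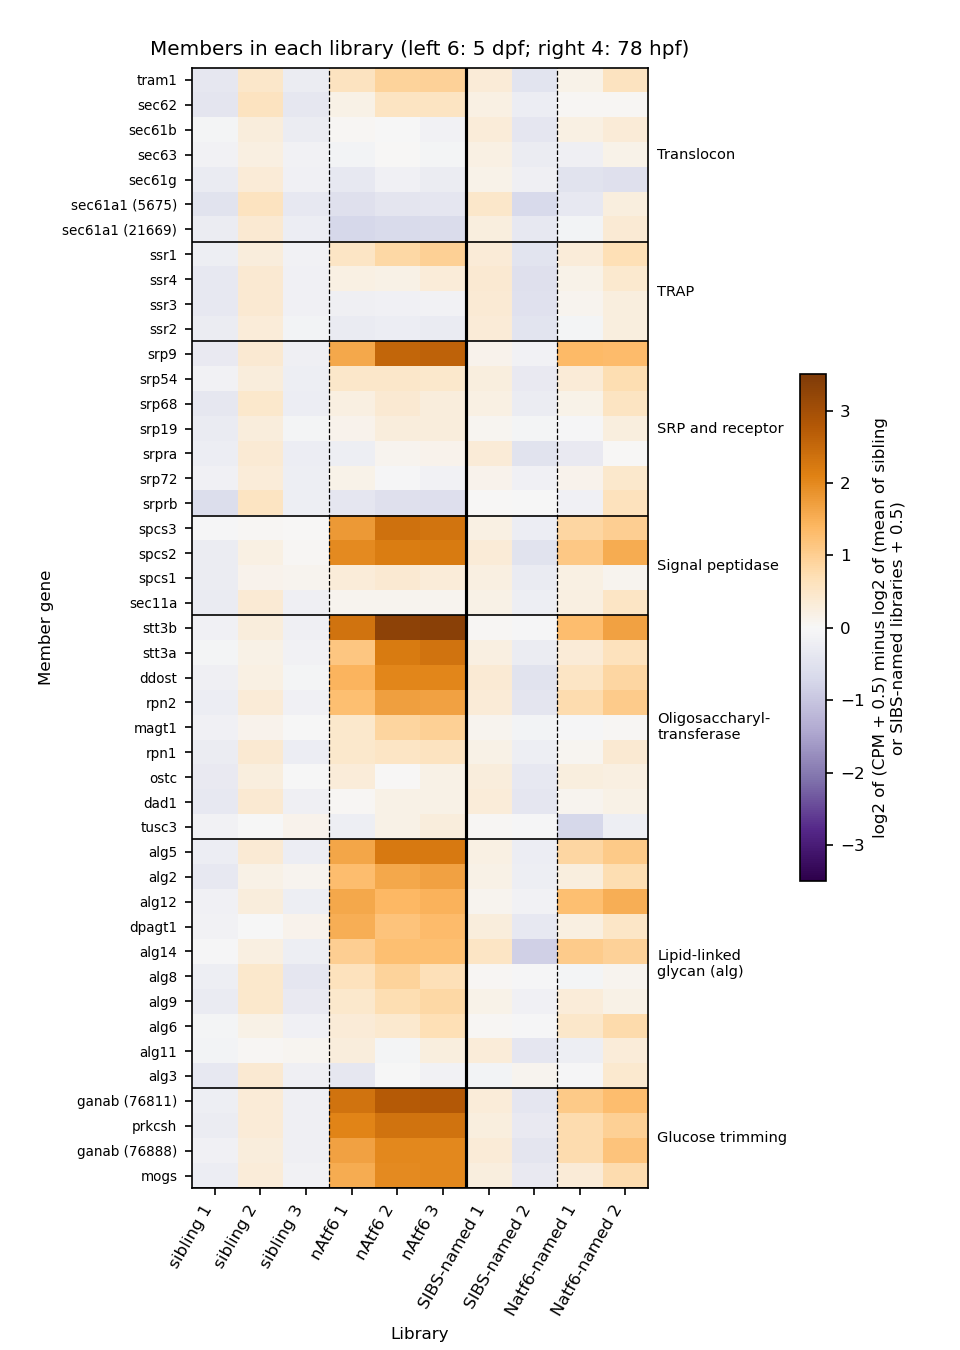
Heat map of the 45 members tested (rows, grouped by role) in the 10 libraries (columns), colored by log2 of CPM + 0.5 minus log2 of the mean CPM + 0.5 of the 3 siblings (left 6 columns, 5 dpf) or of the 2 SIBS-named libraries (right 4 columns, 78 hpf); numbers in brackets are the last digits of identifiers. Orange is concentrated in glucose trimming, OST, the lipid-linked glycan, spcs2, spcs3 and srp9, in nAtf6 TG livers and, more faintly, in Natf6-named libraries.

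No member of the translocon passed the threshold. sec61b, a small subunit of the Sec61 channel, changed least. It was at 49.8, 64.1 and 43.6 CPM in siblings and 53.8, 51.8 and 48.2 CPM in nAtf6 TG livers, and the groups overlapped (log2 fold change -0.03 ± 0.19, SE, adjusted p = 0.909). That sign turned with total counts as library sizes (0.05). sec63, which works with the chaperone Hspa5 at the channel, changed by -0.05 ± 0.17 (0.02 with total counts), and the small subunit sec61g by -0.26 ± 0.19.

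The pore-forming subunit sec61a1 was the member with the lowest fold change, which is why it was singled out after its values were seen. Its identifier ENSDARG00000021669 was at 550, 866 and 564 CPM in siblings and 395.5, 417 and 422 CPM in nAtf6 TG livers. All nAtf6 TG libraries were below all siblings, at a log2 fold change of -0.68 ± 0.23 with an adjusted p of 0.0727. It passed the threshold with total counts (-0.58, adjusted p = 0.0139), with DESeq2 (-0.71, adjusted p = 0.0261), with at least 10 counts in every library (-0.70, adjusted p = 0.0456) and without sibling 2 (-0.42, adjusted p = 0.0254). The second identifier, ENSDARG00000005675, overlapped between groups (-0.46 ± 0.29, adjusted p = 0.285). How reads that fit both copies were counted is not known here, so the values of each copy are uncertain. Of the partners of the channel, tram1, which contacts entering chains, was at 87.5 to 158 CPM in siblings and 169 to 220 CPM in nAtf6 TG livers, without overlap (0.82 ± 0.27, adjusted p = 0.0657). It passed under the same 4 alternatives, with adjusted p of 0.00862, 0.0378, 0.0494 and 0.00333. sec62 overlapped (0.45 ± 0.30) and passed without sibling 2 (0.88, adjusted p = 0.00799).

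TRAP binds the channel and helps some chains to enter. Its subunit ssr1 was at 112, 158 and 120 CPM in siblings and 189, 232 and 254 CPM in nAtf6 TG livers. The groups did not overlap, and the log2 fold change was 0.79 ± 0.21 (adjusted p = 0.0371), a call lost with RLE size factors (adjusted p = 0.0508). The other subunits overlapped and were not called. ssr3 changed least, at 107, 177 and 122 CPM in siblings and 119, 122 and 124 CPM in nAtf6 TG livers (-0.15 ± 0.22), and without sibling 2 its sign turned (0.10). The values of ssr4 and ssr2 were 0.24 ± 0.22 and -0.28 ± 0.20.

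Of the SRP genes, srp9 was the one called. Its product binds the end of the SRP RNA that slows translation until the ribosome is docked. It was at 11.3, 18.8 and 12.4 CPM in siblings and 44.1, 86 and 88.6 CPM in nAtf6 TG livers. Every nAtf6 TG library was above every sibling, library 1 least so (log2 fold change 2.37 ± 0.33, adjusted p = 0.00354). srp54, the subunit that binds the signal peptide, did not overlap either, at 48.5 to 68.5 CPM in siblings and 77.9 to 79.4 CPM in nAtf6 TG livers, but its adjusted p was 0.0984 (0.48 ± 0.18). The member of this class that changed least was srp72, which with srp68 forms a scaffold on the RNA. Its CPM were 34.7, 48.0 and 33.8 in siblings and 42.9, 37.7 and 35.4 in nAtf6 TG livers, and its log2 fold change of -0.01 ± 0.19 became 0.08 with total counts. The remaining SRP subunits srp68 and srp19, and the receptor subunits srpra and srprb, ranged from -0.51 (srprb) to 0.32 (srp68), all with overlapping groups.

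Signal peptidase divided evenly. spcs3, an accessory subunit needed for cleavage, was at 19.7, 21.1 and 20.7 CPM in siblings and 72.2, 109 and 104.5 CPM in nAtf6 TG livers (log2 fold change 2.21 ± 0.20, adjusted p = 0.00064). spcs2, which links the complex to the channel, was at 46.2, 63.4 and 56.4 CPM against 221, 253.5 and 258 CPM (2.14 ± 0.19, adjusted p = 0.000599). Neither gene overlapped between the groups. sec11a, a catalytic subunit, overlapped, at 26.9, 42.4 and 28.8 CPM in siblings and 35.0, 35.2 and 34.8 CPM in nAtf6 TG livers (0.10 ± 0.20, adjusted p = 0.754). spcs1 was higher in all nAtf6 TG libraries, at 31.1 to 32.7 CPM against 20.9 to 27.4 CPM, and did not pass the threshold (0.35 ± 0.16, adjusted p = 0.153).

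**Figure D2:**
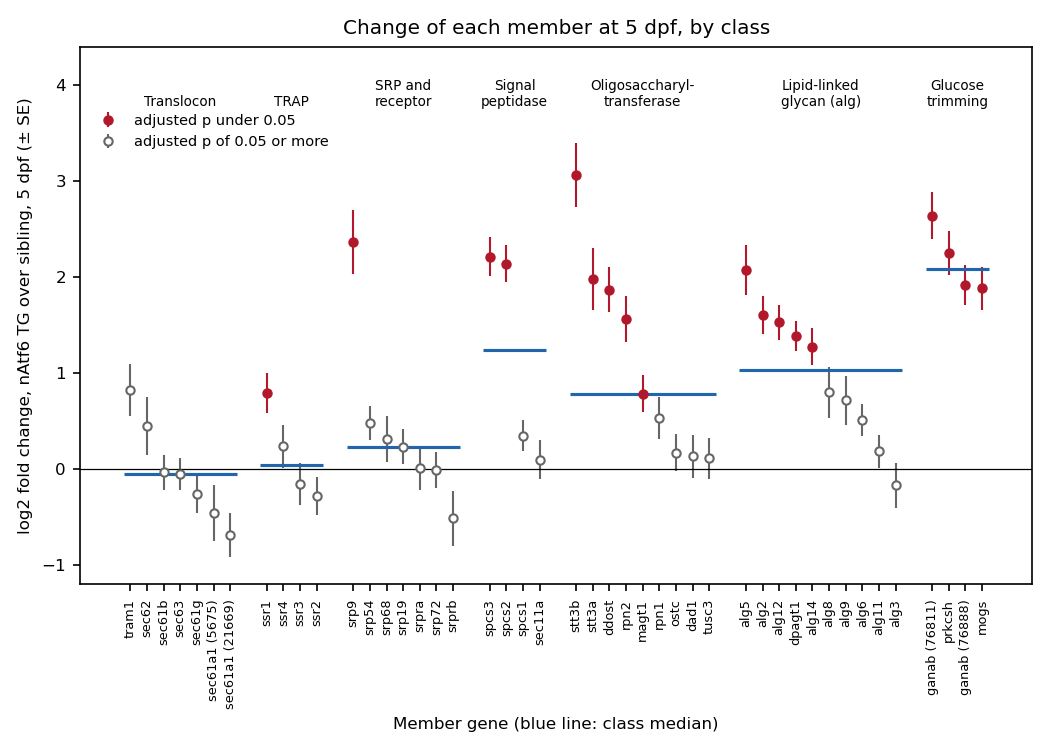
Log2 fold change of each member at 5 dpf (nAtf6 TG over sibling, points, with SE bars), grouped by role along the x axis, with blue lines at class medians; red points passed an adjusted p of 0.05 and open points did not. The medians run from -0.05 in the translocon (0.02 with total counts as library sizes) and 0.04 in TRAP to 2.09 in glucose trimming.

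OST holds 1 of 2 catalytic subunits, stt3a, whose complex sits at the channel and acts as the chain enters, or stt3b, whose complex acts on sites left over. stt3b was at 81.9, 113 and 80.4 CPM in siblings and 462, 908 and 937 CPM in nAtf6 TG livers, the largest rise among the members (log2 fold change 3.07 ± 0.33, adjusted p = 0.00125). stt3a was at 119, 139 and 114 CPM in siblings and 274, 571.5 and 623 CPM in nAtf6 TG livers (1.98 ± 0.32, adjusted p = 0.00663). For both, nAtf6 library 1 lay well below libraries 2 and 3 and above every sibling.

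The ratio of stt3b to stt3a reads within a library does not depend on scaling between libraries. It was 0.690, 0.810 and 0.706 in siblings and 1.68, 1.59 and 1.5 in nAtf6 TG livers, a 2.16-fold difference of means with no overlap. A 2-sided exact permutation test gave p = 0.1, the smallest that 3 against 3 pools allow, and 0.2 after adjustment over the 4 such ratios tested. Because the genes differ in length, the ratio compares libraries and not the amounts of the proteins or transcripts.

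magt1 and tusc3 are alternative oxidoreductase subunits of the stt3b complex. magt1 was at 38.7, 47.0 and 42.8 CPM in siblings and 58.2, 79.5 and 84.3 CPM in nAtf6 TG livers, without overlap (0.79 ± 0.19, adjusted p = 0.0284). tusc3, the OST member that changed least, was at 3.31, 3.61 and 4.03 CPM against 3.09, 4.17 and 4.58 CPM, with overlap (0.11 ± 0.22, adjusted p = 0.739). The ratio of magt1 to tusc3 reads was 11.7, 13.0 and 10.6 in siblings and 18.8, 19.1 and 18.4 in nAtf6 TG livers (exact permutation p = 0.1, adjusted 0.2). The call of magt1 was lost when nAtf6 libraries 2 and 3 were summed into 1 library (adjusted p = 0.128) and without any 1 of sibling 1 (adjusted p = 0.109), sibling 3 (0.0983), nAtf6 library 2 (0.131) or nAtf6 library 3 (0.135); that of ssr1 was lost without the same libraries (adjusted p = 0.129, 0.129, 0.151 and 0.167).

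Of the subunits shared by both complexes, ddost was at 110.5 to 143 CPM in siblings and 340 to 513 CPM in nAtf6 TG livers (1.87 ± 0.23, adjusted p = 0.00217). rpn2 was at 215 to 320 CPM against 613 to 828 CPM (1.56 ± 0.24, adjusted p = 0.00499). rpn1, which holds substrates near the catalytic subunit, did not overlap, at 95.1 to 149 CPM and 157 to 171 CPM, but was not called (0.53 ± 0.22, adjusted p = 0.123). dad1 (0.13 ± 0.22) and ostc (0.17 ± 0.20), the subunit found with stt3a, overlapped. Shared subunits were thus on both sides of the threshold.

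**Figure D3:**
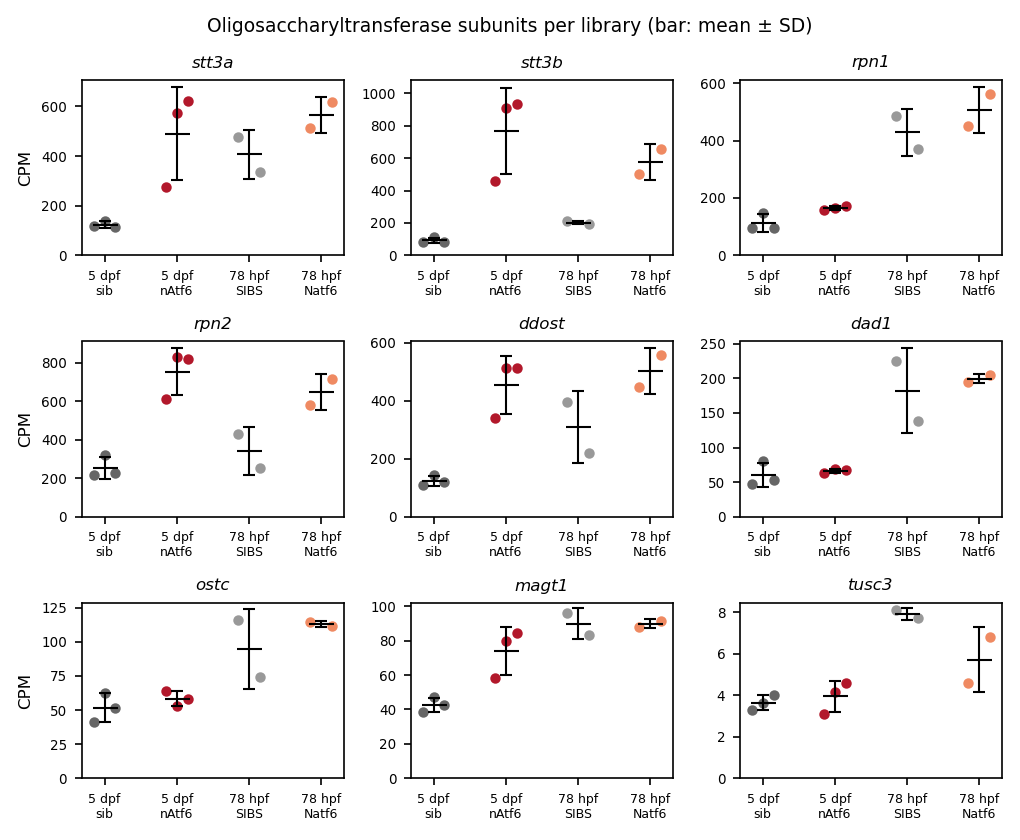
CPM of the 9 OST subunits in each library (points) with mean ± SD (black bars) for 5 dpf siblings (n = 3), 5 dpf nAtf6 TG (n = 3), 78 hpf SIBS-named (n = 2) and 78 hpf Natf6-named libraries (n = 2); each y axis starts at 0 and has its own scale. stt3a, stt3b, rpn2 and ddost stand clear of the siblings at 5 dpf, whereas dad1, ostc and tusc3 overlap.

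The lipid-linked glycan is begun on the cytosolic face of the ER and finished in the lumen. On the cytosolic face 3 of 4 tested members rose. dpagt1, which adds the first sugar to dolichol phosphate, was at 9.71 to 11.5 CPM in siblings and 24.7 to 30.9 CPM in nAtf6 TG livers (1.39 ± 0.16, adjusted p = 0.00142). alg14, part of the enzyme for the next sugar, was at 3.60 to 5.09 CPM against 8.96 to 11.0 CPM (1.28 ± 0.19, adjusted p = 0.00468). alg2, which adds mannoses, was at 4.88, 7.22 and 6.82 CPM in siblings and 16.3, 20.1 and 21.2 CPM in nAtf6 TG livers (1.60 ± 0.20, adjusted p = 0.00223). None of these overlapped. alg11, which adds the mannoses after alg2, overlapped (0.18 ± 0.17, adjusted p = 0.469).

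Of the lumenal enzymes 1 of 5 rose, namely the mannosyltransferase alg12, at 9.30 to 13.2 CPM in siblings and 28.8 to 33.6 CPM in nAtf6 TG livers (1.53 ± 0.18, adjusted p = 0.00181). The mannosyltransferase alg3 changed least, at 9.53, 16.5 and 10.9 CPM in siblings and 9.33, 12.2 and 11.2 CPM in nAtf6 TG livers (-0.17 ± 0.23), and without sibling 2 its sign turned (0.11). The mannosyltransferase alg9 (0.72 ± 0.25, adjusted p = 0.0826) and the glucosyltransferases alg6 (0.52 ± 0.17, adjusted p = 0.0663) and alg8 (0.80 ± 0.26, adjusted p = 0.0698) did not pass. Without sibling 2 all 3 did, with adjusted p of 0.0057, 0.022 and 0.00525. alg5, which makes the dolichol-linked glucose that alg6 and alg8 use, had the largest rise of the class, at 21.3, 32.3 and 21.2 CPM in siblings and 77.8, 118 and 119 CPM in nAtf6 TG livers (2.07 ± 0.26, adjusted p = 0.00227).

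All members of glucose trimming rose, and none overlapped. ganab is the catalytic subunit of glucosidase II. Its identifier ENSDARG00000076811 was at 60.8, 89.2 and 62.3 CPM in siblings and 361, 480 and 484.5 CPM in nAtf6 TG livers (2.64 ± 0.24, adjusted p = 0.000619). The second ganab identifier, ENSDARG00000076888, was at 63.0 to 87.2 CPM against 231 to 293 CPM (1.92 ± 0.21, adjusted p = 0.00129), with the same uncertainty over shared reads as in sec61a1. prkcsh, the partner subunit, was at 60.7, 93.7 and 65.1 CPM in siblings and 309, 371 and 369 CPM in nAtf6 TG livers (2.26 ± 0.23, adjusted p = 0.000944). mogs, glucosidase I, changed least in the class, at 18.8, 27.8 and 20.4 CPM in siblings and 66.0, 89.5 and 91.8 CPM in nAtf6 TG livers (1.89 ± 0.23, adjusted p = 0.00183).

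Summed over all members, the CPM were 3209 ± 754 in siblings and 6518 ± 1046 in nAtf6 TG livers (SD, n = 3), a ratio of 2.03. The ratio was 0.854 for the translocon, 1.14 for TRAP, 1.32 for SRP, 2.5 for the lipid-linked glycan, 3.04 for signal peptidase, 3.27 for OST and 4.82 for glucose trimming. Such sums weigh the genes with most reads. Within a library, the reads of OST per read of the translocon were 0.878, 0.768 and 0.903 in siblings and 2.49, 3.47 and 3.56 in nAtf6 TG livers. For glucose trimming they were 0.240, 0.216 and 0.240 against 1.18, 1.34 and 1.34, and for signal peptidase 0.133, 0.112 and 0.151 against 0.440, 0.468 and 0.465. For TRAP they were 0.549, 0.528 and 0.599 against 0.747, 0.717 and 0.753. For SRP they were 0.254, 0.245 and 0.255 against 0.374, 0.396 and 0.392, and for the lipid-linked glycan 0.101, 0.0888 and 0.103 against 0.267, 0.283 and 0.293. In none of these ratios did the groups overlap, and they were given no test because the classes were compared with results known. Of the mean translocon sum, sec61a1 ENSDARG00000021669 made up 660 of 1037 CPM in siblings and 411 of 885.5 CPM in nAtf6 TG livers. All these ratios share that denominator, so a lower sec61a1 raises each of them, and they were not computed without it. The sums of TRAP overlapped, at 470 to 728 CPM in siblings and 610 to 694 CPM in nAtf6 TG livers. Those of SRP overlapped too, at 217 to 337 CPM in siblings and 306 to 364 CPM in nAtf6 TG livers.

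**Figure D4:**
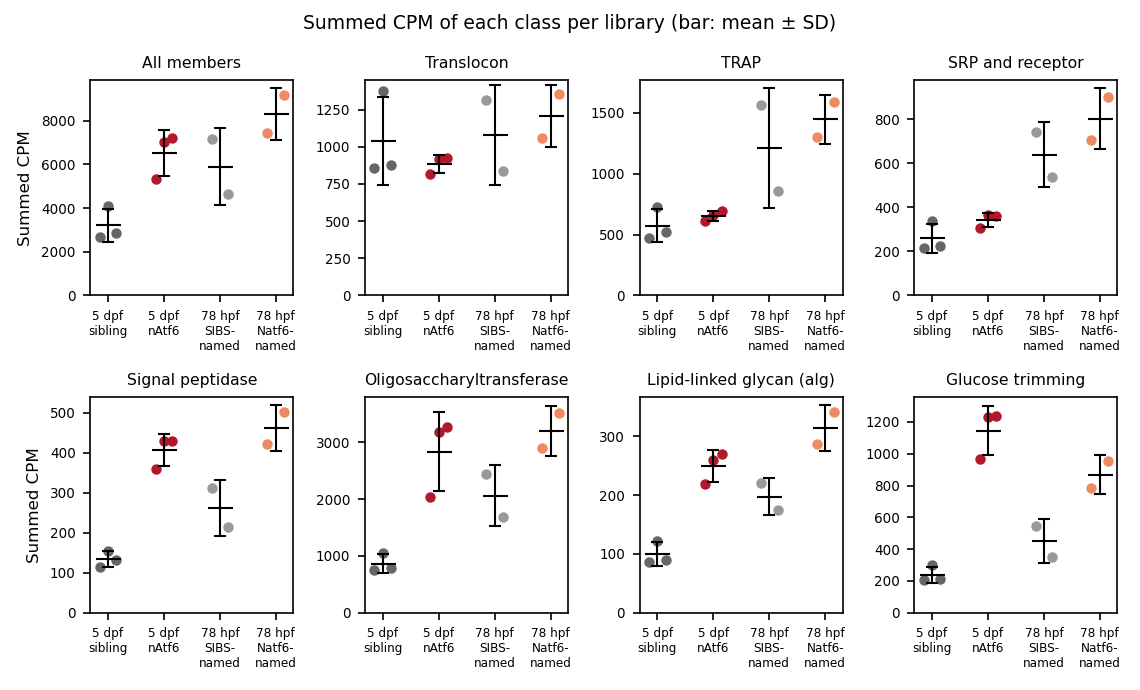
Summed CPM of all members and of each class in each library (points) with mean ± SD (black bars; n = 3 pools per group at 5 dpf, n = 2 at 78 hpf); each y axis starts at 0 and has its own scale. At 5 dpf the sums of the translocon (ratio of means 0.854), TRAP and SRP overlap, while signal peptidase, OST, the lipid-linked glycan and glucose trimming lie apart.

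To follow the same genes earlier, the Natf6-named and SIBS-named libraries of 78 hpf were compared, with signs that the titles would turn. None of the 45 members passed (edgeR's quasi-likelihood test, n = 2 pools per group), as was the case for all 14555 genes tested (0%). At an unadjusted p under 0.05 there were 11 members of 45, all higher, and 5.97% of all genes. DESeq2 called 3 members (stt3b, srp9 and alg12) and 1.29% of all genes, and a single edgeR model of all 10 libraries called 1 member (alg12) and 0.568% of all genes. In 19 members both Natf6-named libraries were above both SIBS-named ones, and in 2 both were below; over all genes 19.9% and 19.2% were so ordered. Of the 18 members called at 5 dpf, 15 were higher without overlap at 78 hpf, against 4 of the 27 not called. The same share among all genes called at 5 dpf was not counted, so these counts do not show a trait particular to the members.

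stt3b was at 210 and 196 CPM in SIBS-named libraries and 501 and 656 CPM in Natf6-named libraries (log2 fold change 1.51 ± 0.25, SE). srp9 was at 36.5 and 30.7 CPM against 86.8 and 85.0 CPM (1.35 ± 0.21), and alg12 at 22.5 and 19.3 CPM against 51.4 and 61.2 CPM (1.43 ± 0.23). None of the 3 overlapped. Their adjusted p were 0.358, 0.337 and 0.348 in edgeR's quasi-likelihood test and 0.000209, 0.00491 and 0.0126 in DESeq2. In the single model, alg12 changed by 1.58 with an adjusted p of 0.0344.

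Among the signal peptidase and trimming genes, spcs2 was at 90.5 and 51.1 CPM in SIBS-named and 152 and 207 CPM in Natf6-named libraries (1.34 ± 0.38). spcs3 was at 78.5 and 57.3 CPM against 124 and 137 CPM (0.94 ± 0.25). The ganab identifier ENSDARG00000076811 was at 150 and 92.8 CPM against 257 and 301.5 CPM (1.2 ± 0.32). The groups of all 3 lay apart, as did those of prkcsh (0.86 ± 0.30), mogs (0.57 ± 0.31), the other ganab identifier (0.99 ± 0.36), alg5 (0.98 ± 0.26), rpn2 (0.92 ± 0.34), ddost (0.70 ± 0.36) and stt3a (0.48 ± 0.28). The members called at 5 dpf that overlapped at 78 hpf were ssr1 (0.52 ± 0.36), dpagt1 (0.37 ± 0.31) and magt1, at 96.2 and 83.5 CPM against 88.2 and 91.7 CPM. The members lower in both Natf6-named libraries were sec61g, at 31.2 and 24.9 CPM against 19.9 and 19.1 CPM (-0.52 ± 0.24), and tusc3, at 8.11 and 7.72 CPM against 4.6 and 6.82 CPM (-0.47 ± 0.36).

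The ratio of stt3b to stt3a reads was 0.441 and 0.581 in SIBS-named and 0.975 and 1.06 in Natf6-named libraries (2.00-fold, 2-sided exact permutation p = 0.333, the smallest that 2 against 2 pools allow). That of magt1 to tusc3 was 11.9 and 10.8 against 19.2 and 13.4 (exact permutation p = 0.333). The latter rests on tusc3 counts of 44 and 40 against 30 and 39, and magt1 itself overlapped at this age. Neither ratio overlapped between the groups. At this age the 2 libraries of a group differed in the same direction for most members. SIBS-named library 2 was below library 1 for 44 of 45 members, and Natf6-named library 2 was above library 1 for 39. The shares of all genes in this order were not counted. Muscle markers summed to 3813 CPM in SIBS-named library 2 and to 68.6 to 917 CPM in the other 3, erythrocyte markers to 952 CPM against 80.0 to 204.5 CPM, and pancreas markers were highest in Natf6-named library 2, as given above. Of the endothelial markers 5 of 6, and of the muscle markers 5 of 7, were lower in both Natf6-named libraries. All 13 pancreas markers tested were higher in both, at a median log2 fold change of 6.47. The part of these cell types was not tested. Leaving out either of these libraries left 0 members called, with a median log2 fold change over the members of 0.16 without SIBS-named library 2 and 0.21 without Natf6-named library 2, against 0.30 with all 4 libraries. It was 0.74 without SIBS-named library 1 and 0.52 without Natf6-named library 1, again with 0 members called.

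The difference between the ages was tested in 1 model of all 10 libraries. It passed the threshold for 0 of 45 members and for 14 of 20595 genes (0.068%), and DESeq2 called 0 members and 2.78% of all genes. At an unadjusted p under 0.05 there were 8 of 45 members and 13.2% of all genes. The 8 were all called at 5 dpf and had a smaller change at 78 hpf, and the difference is taken from the same 5 dpf values that gave the calls. The lowest adjusted p in edgeR's quasi-likelihood test were those of spcs3 (difference -1.14 ± 0.36, adjusted p = 0.232), prkcsh (-1.26 ± 0.43, adjusted p = 0.267) and the ganab identifier ENSDARG00000076811 (-1.31 ± 0.45, adjusted p = 0.27). For alg12 the difference was 0.04 ± 0.34. With the titles taken as right the signs at 78 hpf turn and these differences change throughout.

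**Figure D5:**
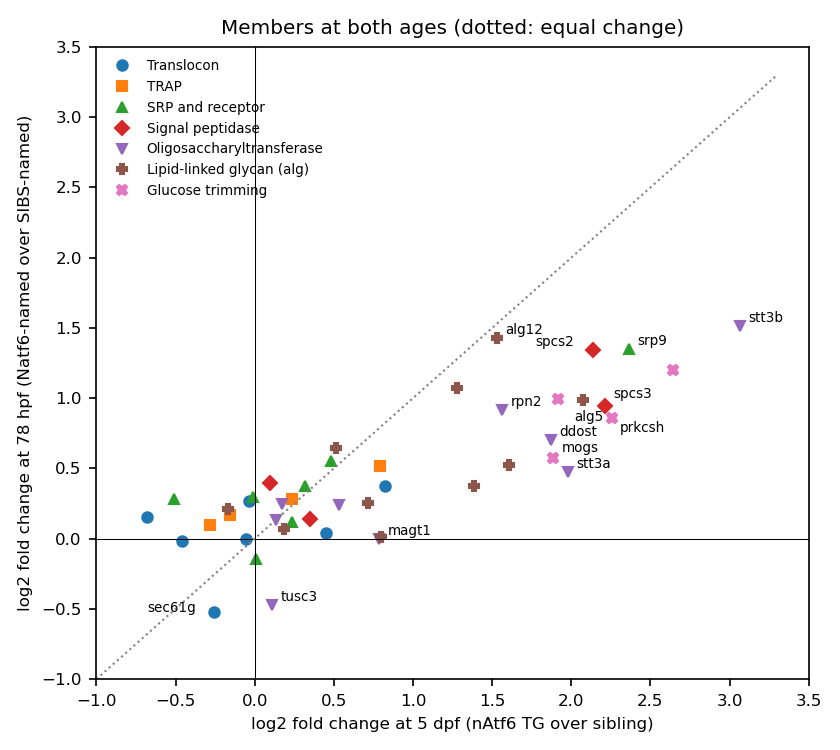
Log2 fold change of the 45 members at 5 dpf (x axis, nAtf6 TG over sibling) and at 78 hpf (y axis, Natf6-named over SIBS-named; the titles turn its sign), with marker shapes for the classes and a dotted line of equal change. stt3b lies farthest to the right at 3.07 and 1.51, and alg12 lies near the dotted line at 1.53 and 1.43.

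Across members the changes at the 2 ages, which share no library, had a Pearson's r of 0.82 and a Spearman's rho of 0.77 (45 genes, which are not independent replicates), against 0.48 and 0.37 over 14201 genes tested at both ages. The members were chosen with earlier results of these data known. They were not matched to the other genes for read counts, so these values do not show a trait particular to the members. The sign was the same in 35 of 45 members (77.8%) and in 62.6% of all genes. The class medians at 78 hpf were 0.04 for the translocon, 0.23 for TRAP, 0.30 for SRP, 0.67 for signal peptidase, 0.25 for OST, 0.45 for the lipid-linked glycan and 0.93 for glucose trimming, against -0.02 over all genes. Glucose trimming had the highest median at both ages. OST had a lower median than the lipid-linked glycan at both.

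Genes that supply or follow the machinery were read from lists outside the members, also chosen with earlier results of these data known. Of 22 genes that make dolichol phosphate and the sugar donors, 13 rose at 5 dpf and 0 fell, against 13.7% higher over all genes. The largest rises were gfpt1, the first enzyme of the hexosamine pathway, with means of 13.5 CPM in siblings and 197 CPM in nAtf6 TG livers (3.86 ± 0.39, adjusted p = 0.000857), and uap1, the last, with 3.68 and 26.2 CPM (2.83 ± 0.37, adjusted p = 0.00275). Of 20 tested genes for other OST subunits and for membrane insertion, 4 rose, against the same 13.7% over all genes. These 4 were subunits of the ER membrane complex, which supplies many genes of that list, led by emc2 (1.15 ± 0.20) and emc3 (1.00 ± 0.18). Of 6 genes that check or remove misfolded glycoproteins, 4 rose, led by uggt1, which puts glucose back on unfolded glycoproteins (3.87 ± 0.27, means of 69.6 and 1016 CPM), and engase (0.97 ± 0.18). The list medians were 1.2, 0.39 and 0.65. At 78 hpf none of the 48 genes tested passed, and 7 had an unadjusted p under 0.05, against 5.97% of all genes.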

How the data were processed

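RNA from pooled livers was sequenced in 10 libraries. The authors deposited raw counts of reads per Ensembl gene. The processing notes name FastQC 0.11.5, Trimmomatic, TopHat2 2.1.0, HTSeq and DESeq2 for 5 dpf, CASAVA, MultiQC 1.7, HTSeq and DESeq2 for 78 hpf, and the build GRCz10. The aligner of 78 hpf, the annotation release and the strand setting are not given in the sources used here, so the counts of overlapping genes are uncertain. At 78 hpf, 35.3% to 47.4% of reads were in entries that name no gene and were left out.

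Tests on the counts used edgeR 4.0.16 under R 4.3.3 (filterByExpr, TMM scaling, quasi-likelihood test, Benjamini-Hochberg adjustment over all genes tested, called at an adjusted p under 0.05), with each age fitted alone and the difference between the ages in 1 model of all 10 libraries. CPM are counts scaled to the library size after TMM. The script was tested on simulated counts in which some genes were given an absolute log2 fold change of 1 or 2. At 5 dpf it called 9 of 96 such genes at 1 and 73 of 98 at 2. At 78 hpf it called 0 of 94 and 0 of 95, and for the difference between the ages 0 of 95 and 5 of 99. Among genes given no change it called 5, 0 and 1. Far fewer genes were changed in these simulated counts than the 21.2% called in the data at 5 dpf. The adjusted p depends on that share, so these counts do not tell how many changes of such size the fits above would find. Names came from a table that names 26269 of the 32105 identifiers. Values in every library are given for, in each class, the 2 largest rises past the threshold at 5 dpf, any fall past it and the smallest absolute change, and for stt3a, stt3b, magt1 and tusc3; other members are given by range. In the lists outside the members, the 2 largest rises or falls past the threshold are named. The members and lists were chosen with earlier results of these data known. Pools are labelled as separate samples. The numbers at 78 hpf are clutch numbers, and libraries of the same clutch had a correlation of -0.131 after subtraction of group means. Alternatives were RLE size factors, total counts, DESeq2 1.42.0, other filters, blocks, a joint model, a fold change limit and leaving out each library.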

Additional observations from a re-analysis of the deposited data

How the results depend on the processing

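At 5 dpf the number of members called was 18, and 16 to 20 with RLE size factors, DESeq2, other filters, the replicate block (18, of which 17 shared), 1 model of all 10 libraries, nAtf6 libraries 2 and 3 summed, or a minimum absolute log2 fold change of 1. It was 24 (23 higher, 1 lower) with total counts as library sizes, an alternative chosen after seeing the data, and 16 to 29 when 1 library was left out, the 29 being without sibling 2. The share called over all genes, 21.2%, was 17.4% with total counts, 7.07% with the summed libraries and 6.78% to 37.9% with 1 library left out. Of the 18 calls, 16 held under every alternative, and ssr1 and magt1 did not. At 78 hpf the count was 0, except for 3 with DESeq2 (1.29% of all genes) and 1 in the model of all 10 libraries (0.568%); it was 0 with the clutch numbers as a replicate block and 0 with the clutch numbers crossed, a block chosen after seeing the data. With 1 library left out it was 0 throughout, the lone library of a group being assumed to vary like the others. The difference between the ages gave 0 members under the alternatives run. With so few pools these zeros do not show stability or the absence of a change. The cause of these shifts was not tested.

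Single members of 78 hpf were refitted under the alternatives for the 24 that were called at 5 dpf or did not overlap at 78 hpf, and not for the others. Among the members refitted, the signs that turned belong to small changes that were not called. At 5 dpf the log2 fold change of srpra, 0.01, was -0.0156 with RLE, -0.0154 with DESeq2, -0.00758 with a minimum of 10 counts in all libraries and -0.0114 with nAtf6 libraries 2 and 3 summed. That of srp72, -0.01, was 0.0755 with total counts, 0.0651 with no filter, 0.00589 with the replicate block, 0.00444 in the model of all 10 libraries and 0.0595 with the summed libraries. sec63 was 0.0205 and sec61b 0.0467 with total counts, and 0.0227 and 0.0394 with no filter, and sec61b was 0.0122 with the summed libraries. The median of the translocon was 0.0205 with total counts and 0.0227 with no filter. With 1 library left out, the values ran from -0.112 to 0.263 for srpra, -0.106 to 0.191 for srp72, -0.129 to 0.0956 for sec63, -0.16 to 0.152 for sec61b, -0.0364 to 0.344 for sec11a, -0.0265 to 0.406 for dad1, -0.309 to 0.104 for ssr3, -0.338 to 0.111 for alg3, -0.16 to 0.0956 for the translocon median and -0.114 to 0.3 for the TRAP median. At 78 hpf magt1, -0.00123, was 0.0334 with no filter, 0.00196 with the replicate block, 0.00206 with crossed clutch numbers and 0.145 in the model of all 10 libraries, and ran from -0.0995 to 0.172 with 1 library left out, where the translocon median ran from -0.168 to 0.55 and the TRAP median from -0.157 to 0.817.

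With no filter the median over all genes at 5 dpf moved from -0.04 to -0.20, and with total counts that of the difference between the ages moved from 0.06 to -0.12, where the member median moved from -0.14 to -0.35. At 5 dpf the numbers were not stated to mark clutches, and the correlations of same-numbered libraries were 0.115, 0.0918 and -0.0979, so they were not taken as pairs. The planned count of promoter motifs was not run, and no sequences are given. The 78 hpf libraries held fewer counts and 2 pools per group, and their direction rests on the deposited names. The p-values of the count tests weigh the difference between groups against the spread between pools.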

Other observations

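The steps that make UDP-N-acetylglucosamine, the first sugar placed on dolichol, were looked at together after their values were seen, so they are a description. The mean CPM of siblings and nAtf6 TG livers at 5 dpf were 13.5 and 197 for gfpt1, 40.0 and 183 for gnpnat1, 11.2 and 62.1 for pgm3, and 3.68 and 26.2 for uap1, and each of these 4 rose (edgeR adjusted p between 0.000647 and 0.00364). The related gene uap1l1 did not pass (-0.44 ± 0.26). In the supply of GDP-mannose, pmm2 (2.76 ± 0.24), gmppb (2.56 ± 0.32) and mpi (1.22 ± 0.18) rose, and of the subunits of dolichol phosphate mannose synthase dpm2 rose (1.37 ± 0.21), while dpm1 (0.45 ± 0.25) and dpm3 (0.34 ± 0.30) did not pass. For dolichol itself, nus1 rose from a mean of 51.0 to 305 CPM (2.58 ± 0.26), and its partner dhdds from 9.05 to 17.4 CPM (0.94 ± 0.24). Of the other dolichol genes in that list, dolpp1 rose (1.19 ± 0.26), while srd5a3 (-0.28 ± 0.32) and dolk (-0.24 ± 0.21) did not pass.

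Among pairs of related identifiers in these lists, mpdu1b rose (1.59 ± 0.32), whereas mpdu1a had the opposite sign and did not pass (-0.54 ± 0.19). Of the identifiers named GMPPA, ENSDARG00000023498 rose (2.11 ± 0.23) and ENSDARG00000024112 did not pass (-0.10 ± 0.14). Of those named MAN1B1, ENSDARG00000076592 rose (0.74 ± 0.18) and ENSDARG00000073792 did not pass (-0.87 ± 0.38). The difference within each pair was not tested, and how reads that fit both copies were counted is not known here.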
